A study of Mus musculus with 15 samples.

Results

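The genes described here take fatty acids from the blood into the heart muscle cell and oxidise them in its mitochondria. The list held 33 genes, fixed by name, and a gene was kept where at least 3 of the 15 libraries held 10 or more reads for it. All 33 were among the 17447 genes of the count table, and all 33 met the rule. All 33 were also among the 13021 genes that passed the filter of the test, with between 469 and 99377 reads per gene and library, so that none was lost and none entered through 1 group alone.

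Hearts of male C57BL/6J mice, young adults at the start, were measured by RNA-seq 18 weeks after surgery, 3 mice in each of 5 groups, 1 library per mouse. CKD, chronic kidney disease, was induced by subtotal nephrectomy. WTSHAM were wild-type mice with a sham operation, for which the labels give no vector. WTCKD were wild-type CKD mice that received the vector, and WTCKD + RNLS were wild-type CKD mice that received AAV9-cTnT-RNLS, an adeno-associated virus that expresses renalase (RNLS) from the cardiac troponin T promoter, active in cardiomyocytes. KOCKD and KOCKD + RNLS were rnls-/- CKD mice, a TALEN knockout aimed at exon 4, with the vector and with AAV9-cTnT-RNLS. No library of sham-operated knockout mice was analysed here, so CKD was compared with sham in wild-type hearts only. There the CKD mice had the vector and the sham mice did not, so the effect of CKD and that of the vector cannot be told apart. The Rnls gene had no row in the count table, hence the genotype and the virus could not be checked in the libraries and rest on the labels.

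Fatty acids are the main fuel of the adult heart. They are released from lipoproteins, carried across the sarcolemma, bound in the cytosol, activated to acyl-CoA and passed into the mitochondrion as acylcarnitines, where the beta-oxidation spiral shortens them by repeated dehydrogenation, hydration, a further dehydrogenation and thiolysis. The nuclear receptor PPARα and its coactivator PGC-1α drive transcription of many of these genes, and malonyl-CoA restrains the pathway at the carnitine shuttle.

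The libraries held 10480788 to 13424078 counted reads. Together the 33 genes took 3.42% to 3.66% of the reads in WTSHAM, 2.93% to 3.24% in WTCKD, 2.86% to 3.22% in WTCKD + RNLS, 3.17% to 3.34% in KOCKD and 2.79% to 3.04% in KOCKD + RNLS. The summed cardiomyocyte markers came to between 99412 and 136136 CPM (read counts scaled to library depth, with TMM), while Myh1, Myh2, Myh4, Tnnt3 and Actn3 of the skeletal muscle list, Lep of the white fat list and Elovl3 and Slc27a2 of the brown fat list stayed below 1 CPM in every library. With their other genes, some of which heart muscle expresses too (Ckm, Acta1, Cox7a1), these lists summed to 3053 to 4557 CPM for skeletal muscle, at most 31.8 for white fat and 550.3 to 784 for brown fat. Each value is a share of the RNA of a whole piece of heart, so fewer cells of a type and less RNA per cell cannot be told apart. The labels give only a number for each library of a group, and the p-values measure the spread between these libraries.

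**Figure D1:**
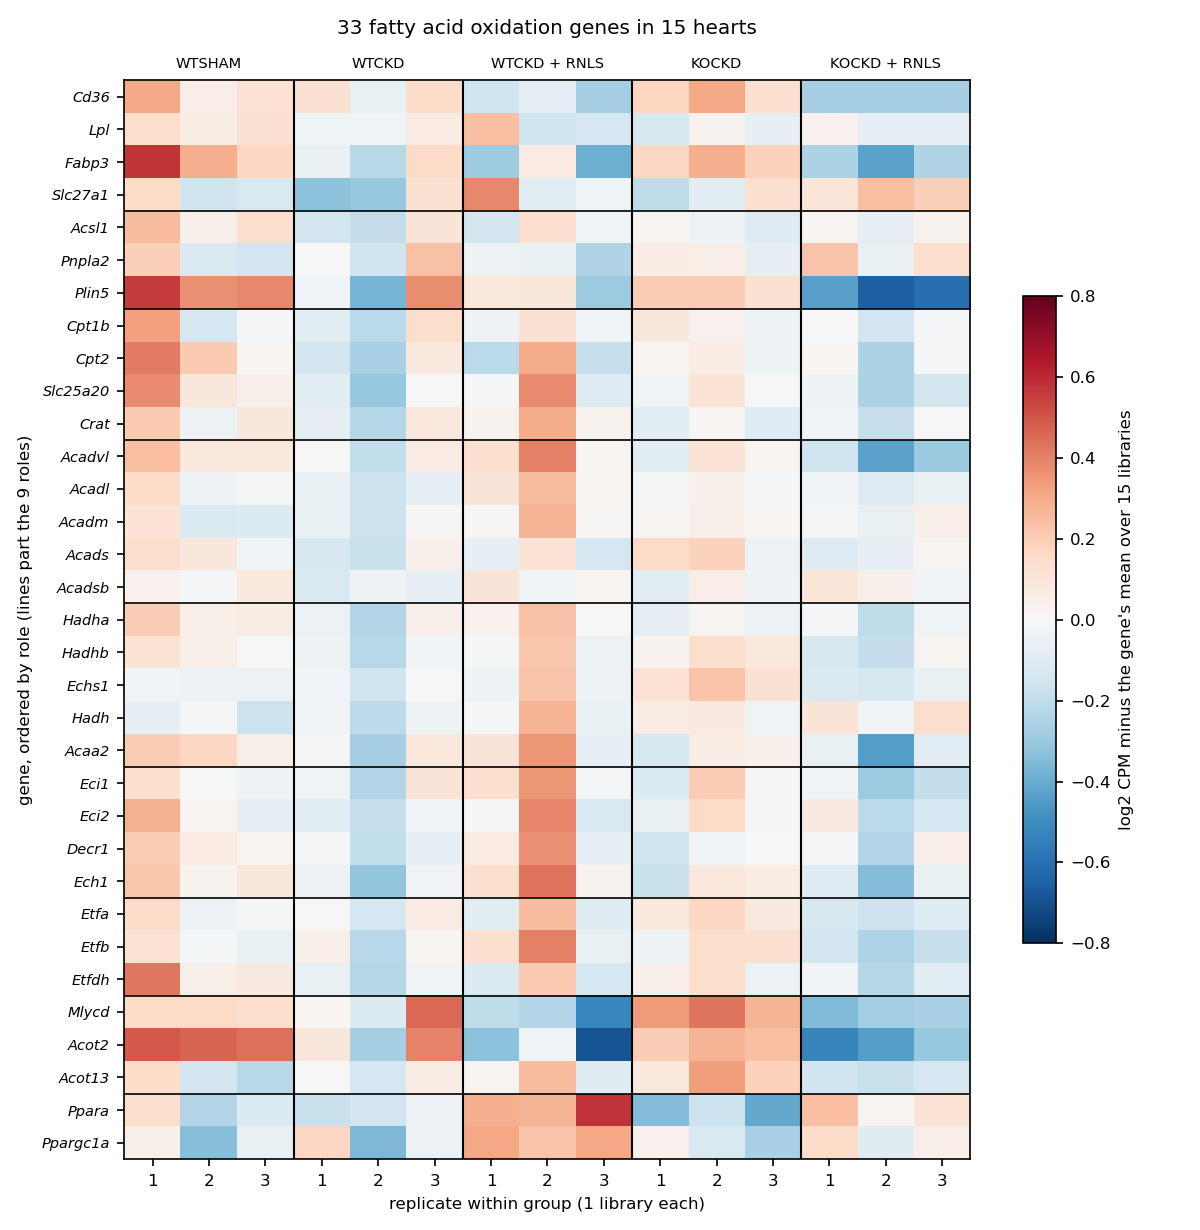
Level of each of the 33 genes (rows, ordered by the 9 roles) in each of the 15 libraries (columns, by group and replicate number), as log2 CPM minus the gene's mean over the 15 libraries, red above and blue below that mean. Whole columns share a colour, among them WTCKD + RNLS replicate 2 (mostly red) and WTCKD replicate 2 (mostly blue), while Mlycd, Acot2 and Ppara follow the RNLS groups.

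Some libraries stood apart over the whole pathway. The median of the 33 genes, as the log2 difference of each gene from its mean over the 15 libraries, was 0.24 in WTCKD + RNLS replicate 2, against 0.01 and -0.06 in replicates 1 and 3 of that group. WTCKD replicate 2 was at -0.21, against -0.04 and 0.06 for the others, and WTSHAM replicate 1 at 0.19, against 0.03 and 0.01. KOCKD lay at 0.02, 0.09 and -0.00, and KOCKD + RNLS at -0.03, -0.19 and -0.06. WTCKD + RNLS replicate 2 held the highest value of the 15 libraries for 15 of the 33 genes, and WTCKD replicate 2 the lowest for 14. Within its group WTCKD + RNLS replicate 2 was highest for 26 of the 33 genes. Of all genes tested it was highest there for 36.1% and lowest for 42.2%. WTCKD replicate 2 was lowest in its group for 29 of the 33 genes and for 34.9% of all genes tested. The medians below that rest on these 2 libraries are given with and without them. The 86 nuclear genes of the respiratory chain moved in some of the same libraries, with a median of 0.36 in WTCKD + RNLS replicate 2 and -0.12 in WTCKD replicate 2, but also 0.29 in KOCKD replicate 2.

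**Figure D2:**
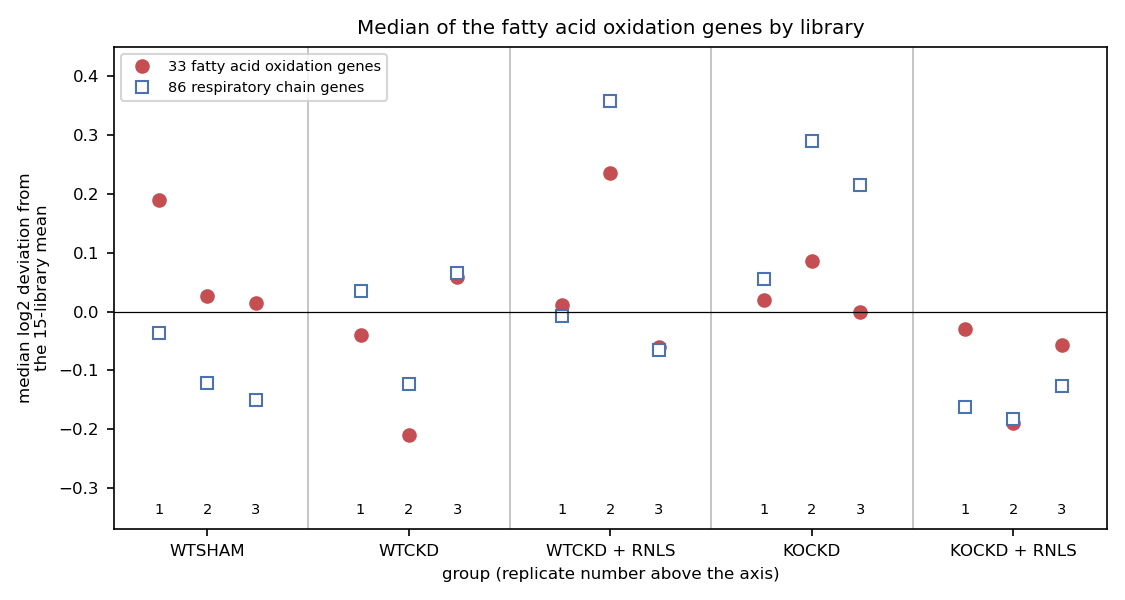
Median log2 deviation from the 15-library mean in each library, for the 33 fatty acid oxidation genes (filled circles) and 86 respiratory chain genes (open squares), by group and replicate number. The fatty acid oxidation genes range from -0.21 in WTCKD replicate 2 to 0.24 in WTCKD + RNLS replicate 2.

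Per gene length, the levels ranged from Fabp3 down to Ppargc1a, in FPKM (fragments scaled by gene length and library depth, as deposited). Fabp3, the cytosolic fatty acid binding protein of heart, led with a mean of 5614 FPKM over the 15 libraries (range 4089 to 8028), and did not overlap Lpl, lipoprotein lipase, in second place at 1667 (1376 to 1928). Ech1, a dienoyl-CoA isomerase, followed at 1256 (987 to 1559). Acadm at 751 (692 to 840) and Hadha at 751 (654 to 844) could not be ordered, nor could Etfb at 724 (611 to 881) and Acadl at 708 (652 to 780). The lowest were Acot2 at 27.3, Ppara at 10.6 and Ppargc1a at 9.32 FPKM, the last 2 overlapping, as Ppara ranged from 8.03 to 15.2 and Ppargc1a from 7.51 to 11.3. The lengths behind the FPKM differ for some genes from an mm9 annotation (gencode vM1). Etfa had 9685 bases by the counts and FPKM but 1835 exon bases in that annotation, and Ppara 10433 against 3836, so their levels per length depend on the transcript assumed.

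Proximal promoter sequence was available for 27 of the 33 genes (RefSeq, GRCm38.p6, 250 bases before to 50 after the start, 31 entries). It was missing for Acaa2, Acot13, Cpt1b, Crat, Decr1 and Lpl. The site AGGTCA, the core that PPAR and ERR receptors share, stood on either strand in 16.3% of all 32851 promoters of this length and in those of 5 of the 27 genes (Acadm, Acadvl, Cd36, Echs1 and Plin5). A direct repeat of AGGTCA with 1 base between, the PPAR type of element, was searched with up to 2 mismatches over the 12 letters, and can overlap the exact site. It was held by 3.86% of all promoters and by 4 of the genes (Cd36, Echs1, Etfa and Slc25a20). The extended site TCAAGGTCA, of the ERR type, stood in 0.423% of all promoters and in none of the 27, and the E-box CACGTG, which clock factors bind, in 7.15% of all and in the promoter of 1 of the 27 genes, Slc27a1. A match describes the letters in this window only. The promoters below belong to 5 of the 7 genes with an entry that passed the test after AAV9-cTnT-RNLS, with motif matches in capitals (Mlycd and Ppara held none, nor did Fabp3 and Acot2, which are not printed), and to the pair Hadha and Hadhb, which encode the α and β subunits of the trifunctional protein and start back to back.
Cd36 (chr5:17835847-17836146, minus strand): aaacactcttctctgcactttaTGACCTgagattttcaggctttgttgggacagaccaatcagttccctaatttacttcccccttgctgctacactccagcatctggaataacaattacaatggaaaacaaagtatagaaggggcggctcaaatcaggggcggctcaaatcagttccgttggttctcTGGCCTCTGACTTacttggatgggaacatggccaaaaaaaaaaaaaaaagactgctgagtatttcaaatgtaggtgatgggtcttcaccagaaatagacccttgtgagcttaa
Echs1 (chr7:140116372-140116671, minus strand): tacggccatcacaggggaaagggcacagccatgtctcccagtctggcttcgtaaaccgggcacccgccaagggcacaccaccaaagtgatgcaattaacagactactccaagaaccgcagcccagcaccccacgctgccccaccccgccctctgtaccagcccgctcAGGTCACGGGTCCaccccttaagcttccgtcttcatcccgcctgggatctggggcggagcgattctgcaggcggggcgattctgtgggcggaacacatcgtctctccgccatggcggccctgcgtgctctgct
Plin5 (chr17:56117499-56117798, minus strand, the upstream of 2 entries): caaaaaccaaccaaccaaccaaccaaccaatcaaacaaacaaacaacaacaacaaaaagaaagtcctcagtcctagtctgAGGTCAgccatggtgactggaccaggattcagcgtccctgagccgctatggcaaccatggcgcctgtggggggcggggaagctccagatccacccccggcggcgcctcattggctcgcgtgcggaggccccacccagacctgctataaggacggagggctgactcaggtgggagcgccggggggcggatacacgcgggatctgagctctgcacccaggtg
Mlycd (chr8:119394644-119394943, plus strand): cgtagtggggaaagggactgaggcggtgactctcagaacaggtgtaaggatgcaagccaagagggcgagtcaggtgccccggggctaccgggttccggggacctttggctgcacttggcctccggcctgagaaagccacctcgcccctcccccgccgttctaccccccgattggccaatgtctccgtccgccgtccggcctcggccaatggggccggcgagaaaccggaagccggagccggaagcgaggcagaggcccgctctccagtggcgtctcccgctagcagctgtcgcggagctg
Ppara (chr15:85735526-85735825, plus strand): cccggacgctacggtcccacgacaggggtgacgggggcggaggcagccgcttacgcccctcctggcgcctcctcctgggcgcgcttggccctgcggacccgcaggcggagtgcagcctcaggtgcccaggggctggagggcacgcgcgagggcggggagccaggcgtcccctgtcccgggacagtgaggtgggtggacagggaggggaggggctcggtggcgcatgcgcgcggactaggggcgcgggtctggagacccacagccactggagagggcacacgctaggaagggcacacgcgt
Hadhb (chr5:30155003-30155302, plus strand, the 228 bases shared with the promoter of Hadha on the other strand in capitals): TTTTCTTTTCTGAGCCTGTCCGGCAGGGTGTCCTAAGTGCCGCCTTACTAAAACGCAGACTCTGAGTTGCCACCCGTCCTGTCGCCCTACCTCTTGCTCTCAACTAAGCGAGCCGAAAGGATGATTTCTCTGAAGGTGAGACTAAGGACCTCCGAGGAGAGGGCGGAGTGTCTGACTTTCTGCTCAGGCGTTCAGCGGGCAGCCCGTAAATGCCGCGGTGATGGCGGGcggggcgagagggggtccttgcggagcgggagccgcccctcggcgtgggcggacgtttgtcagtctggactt

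Few of the 33 genes passed the test in wild-type hearts, and more did in knockout hearts. Between WTCKD and WTSHAM no member had an adjusted p below 0.05 by edgeR, where 0.599% of all genes tested were higher and 1.70% lower. After AAV9-cTnT-RNLS in wild-type CKD 1 member rose (Ppara) and 1 fell (Mlycd), where 2.19% of all genes rose and 2.28% fell. In knockout CKD 1 member rose (Ppara) and 7 fell (Cd36, Fabp3, Plin5, Echs1, Mlycd, Acot2 and Acot13), where 9.05% of all genes rose and 7.04% fell. Between KOCKD and WTCKD no gene at all passed (0%), and none passed in the test of the difference between the 2 RNLS effects (0%). The values of the genes follow by role.

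Of the uptake genes, Cd36 and Fabp3 fell with RNLS in the knockout, and Lpl and Slc27a1 passed in no comparison. Cd36, the fatty acid translocase of the cell surface (Ensembl ENSMUSG00000002944, chr5:17287508-17394777 in mm9), was at 2213, 1862 and 1944 CPM in WTSHAM, 1945, 1718 and 1981 in WTCKD, 1605, 1698 and 1492 in WTCKD + RNLS, 2014, 2219 and 1956 in KOCKD and 1488, 1492 and 1493 in KOCKD + RNLS. The KOCKD + RNLS values lay close together and below all other groups except WTCKD + RNLS, whose lowest library lay among them. The fitted log2 fold change was -0.47 ± 0.08 (SE, n = 3 against 3, adjusted p = 0.00296 by edgeR) in the knockout and -0.23 ± 0.08 (adjusted p = 0.124) in the wild type, where the groups did not overlap either. Fabp3 (chr4:129985839-129992707) was at 5563, 4576 and 4201 CPM in WTSHAM, 3589, 3211 and 4165 in WTCKD, 3071, 3922 and 2858 in WTCKD + RNLS, 4197, 4578 and 4252 in KOCKD and 3139.6, 2777 and 3163 in KOCKD + RNLS. Its mean was highest in WTSHAM, which did not overlap WTCKD, with a difference of -0.39 ± 0.13 (adjusted p = 0.116), and the RNLS effect was -0.52 ± 0.13 (adjusted p = 0.013) in the knockout and -0.15 ± 0.13 (adjusted p = 0.541) in the wild type, where WTCKD + RNLS replicate 2 lay within the WTCKD range. In the knockout the call on Fabp3 was lost without KOCKD replicate 2 (adjusted p = 0.061) or KOCKD + RNLS replicate 2 (adjusted p = 0.0749). Lpl, which frees fatty acids from lipoproteins at the vessel wall, ranged from 6023 to 7951 CPM over all 15 libraries. Slc27a1, a fatty acid transport protein, ranged from 119.9 to 196 CPM with log2 fold changes of 0.26 and 0.23 after RNLS, neither past the test.

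Plin5 was the one gene of activation and the lipid droplet that passed a test. It encodes perilipin 5, which coats droplets beside mitochondria (chr17:56251024-56257019), and was at 147, 128 and 130.2 CPM in WTSHAM, 97.5, 76.9 and 129 in WTCKD, 106, 106 and 81.4 in WTCKD + RNLS, 115, 115 and 108 in KOCKD and 73.7, 63.4 and 65.6 in KOCKD + RNLS. The 3 KOCKD + RNLS libraries were the lowest of the 15, and all lay below KOCKD, with a log2 fold change of -0.74 ± 0.15 (SE, n = 3 against 3, adjusted p = 0.0049 by edgeR), which is 0.6 of the KOCKD level. In the wild type it was -0.05 ± 0.15 (adjusted p = 0.889), the groups overlapped, and the difference of the 2 effects was -0.69 ± 0.21 (adjusted p = 0.142). Pnpla2, the adipose triglyceride lipase that opens the droplet store, had the highest FPKM of this role and was at 596, 482 and 469 CPM in WTSHAM, 521, 467 and 614 in WTCKD, 508, 504 and 441 in WTCKD + RNLS, 543, 541 and 499.5 in KOCKD and 613, 501 and 573 in KOCKD + RNLS. Its groups overlapped in every comparison. Acsl1, the main acyl-CoA synthetase of heart, ranged from 974 to 1323 CPM, highest in WTSHAM replicate 1 and lowest in WTCKD replicate 2.

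No gene of the carnitine shuttle passed in any comparison. Cpt1b, the muscle carnitine palmitoyltransferase of the outer membrane, was at 1073, 780.1 and 844 CPM in WTSHAM, 802, 737 and 943 in WTCKD, 830.4, 929.6 and 842 in WTCKD + RNLS, 909, 875 and 832 in KOCKD and 857, 768 and 850.1 in KOCKD + RNLS. Only WTSHAM replicate 1 lay above the rest, and the RNLS effects were 0.07 (95% CI -0.17 to 0.30) in the wild type and -0.08 (95% CI -0.32 to 0.16) in the knockout. Of its 3372 annotated exon bases 2744 also belong to Chkb on the same strand, so its count depends on how shared reads were assigned. Cpt2 of the inner membrane (-0.32) and Slc25a20, the carnitine-acylcarnitine translocase (-0.30), had the most negative log2 fold changes of the role between WTCKD and WTSHAM, with unadjusted p = 0.029 and 0.0265 by edgeR. Crat, the carnitine acetyltransferase, ranged from 655 to 945 CPM and was again lowest in WTCKD replicate 2 and highest in WTCKD + RNLS replicate 2.

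The 5 acyl-CoA dehydrogenases, which open each turn of the spiral for chains of different length, did not pass the test in the edgeR fit of all 15 libraries. Acadm, for medium chains, had the highest FPKM and was at 1671, 1426 and 1436 CPM in WTSHAM, 1489, 1373 and 1557 in WTCKD, 1559, 1872 and 1556 in WTCKD + RNLS, 1569, 1591 and 1561 in KOCKD and 1532, 1487 and 1596 in KOCKD + RNLS. The 15 values lay within a narrow range, and only WTCKD + RNLS replicate 2 stood above WTSHAM replicate 1. Acadvl, for very long chains, had log2 fold changes of 0.23 ± 0.10 (adjusted p = 0.218) with RNLS in the wild type and -0.31 ± 0.10 (adjusted p = 0.0549) in the knockout by edgeR, where the groups did not overlap (1240.0 to 1428 against 979.8 to 1182 CPM). DESeq2 called Acadvl lower in the knockout (adjusted p = 0.0351), as did the edgeR fit of the 6 libraries compared (adjusted p = 0.0179). Of its exon bases 1151 lie opposite Dvl2. Acadl, for long chains, was 0.23 ± 0.08 (adjusted p = 0.0943) in the wild type, without overlap, and -0.07 ± 0.08 (adjusted p = 0.568) in the knockout. DESeq2 called Acadl higher in the wild type (adjusted p = 0.0438). Acads, for short chains, and Acadsb, for short branched chains, had fitted RNLS effects between -0.15 and 0.11.

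Of the genes for hydration, second oxidation and thiolysis, Echs1 fell with RNLS in the knockout and the others did not pass. Echs1, the short-chain enoyl-CoA hydratase (chr7:147291609-147302375), was at 375, 368 and 369 CPM in WTSHAM, 373, 341 and 380.3 in WTCKD, 371, 445 and 368 in WTCKD + RNLS, 411, 446 and 415 in KOCKD and 351, 348 and 366 in KOCKD + RNLS. KOCKD lay above both WTCKD and KOCKD + RNLS without overlap, with a difference of 0.22 ± 0.08 (adjusted p = 0.458) from WTCKD and an RNLS effect of -0.26 ± 0.08 (SE, n = 3 against 3, adjusted p = 0.0389 by edgeR). That call was lost in 9 of the 13 alternative settings and with any 1 library of the comparison left out (adjusted p up to 0.167 among those). Hadha, the α subunit of the trifunctional protein, was at 2336, 2106 and 2116 CPM in WTSHAM, 1968, 1730.4 and 2094 in WTCKD, 2088, 2396 and 2039 in WTCKD + RNLS, 1938, 2070.1 and 1973 in KOCKD and 2016, 1766 and 1996 in KOCKD + RNLS, and was likewise not called. Hadha and Hadhb varied less in their ratio than each alone, and whether their shared promoter has a part in this was not tested. Hadha over Hadhb, in CPM, was 1.30 to 1.54 over the 15 libraries, with 1.30 to 1.33 in KOCKD and 1.41 to 1.51 in WTSHAM and WTCKD. The SD of this log2 ratio was 0.07, against 0.12 for either gene alone. Etfa and Etfb, on different chromosomes, also had a ratio with a smaller SD (0.09) than either gene (0.13 and 0.17). The KOCKD ratios of Hadha to Hadhb lay below those of every other group. Hadh, the hydroxyacyl-CoA dehydrogenase, ranged from 650.4 to 906 CPM and Acaa2, the mitochondrial thiolase, from 621 to 1074, both highest in WTCKD + RNLS replicate 2.

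The auxiliary enzymes, which let unsaturated chains enter the spiral, were all highest in WTCKD + RNLS replicate 2. Ech1 was at 1657, 1447 and 1514 CPM in WTSHAM, 1375, 1144 and 1392 in WTCKD, 1551, 1918 and 1450.3 in WTCKD + RNLS, 1254, 1508 and 1481 in KOCKD and 1324, 1115 and 1370.5 in KOCKD + RNLS. In the wild type the RNLS effect on Ech1 was 0.33 ± 0.12 (adjusted p = 0.123) by edgeR, with no overlap, and in the knockout it was -0.16 ± 0.12 (adjusted p = 0.384), with overlap. Eci1 and Eci2, the enoyl-CoA isomerases, and Decr1, the dienoyl-CoA reductase, had RNLS effects of 0.21, 0.20 and 0.22 in the wild type and of -0.20, -0.12 and -0.00 in the knockout.

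The electron transfer flavoprotein passes electrons from the acyl-CoA dehydrogenases to ubiquinone, through its dehydrogenase Etfdh. Etfb was at 706, 647 and 625 CPM in WTSHAM, 669, 559.7 and 659.9 in WTCKD, 712, 861 and 625 in WTCKD + RNLS, 634, 718 and 711 in KOCKD and 588, 549 and 572 in KOCKD + RNLS. KOCKD + RNLS lay below KOCKD without overlap (-0.27 ± 0.11, adjusted p = 0.0892), as it did for Etfa (-0.24 ± 0.09, adjusted p = 0.09). Neither was called in the edgeR fit of all 15 libraries. In a fit of the 6 libraries compared both were (adjusted p = 0.0143 for Etfa and 0.0158 for Etfb), as they were with the atrial covariate described further on. Etfdh had an unadjusted p below 0.05 between WTCKD and WTSHAM by edgeR (-0.29 ± 0.11, adjusted p = 0.192), and its groups did not overlap.

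All 3 genes of malonyl-CoA and the thioesterases fell with RNLS in the knockout, Acot13 not under every setting. Mlycd, which breaks down malonyl-CoA and so relieves the brake on the shuttle (chr8:121918778-121935002), was at 131, 132 and 129.7 CPM in WTSHAM, 119, 109.5 and 162 in WTCKD, 103, 101 and 82.3 in WTCKD + RNLS, 149.9, 159 and 143 in KOCKD and 92.6, 97.5 and 98.7 in KOCKD + RNLS. Both RNLS groups lay below their vector groups without overlap, with -0.65 ± 0.12 (SE, n = 3 against 3, adjusted p = 0.00337 by edgeR) in the knockout and -0.45 ± 0.12 (adjusted p = 0.041) in the wild type. WTCKD replicate 3, at 162 CPM, stood above the other WTCKD libraries. Without that library the wild-type difference was -0.27 (adjusted p = 0.142). The call was lost in 6 of the 13 alternatives, which include leaving out WTCKD replicate 1 or WTCKD + RNLS replicate 1 or 3 (adjusted p = 0.0616, 0.0721 and 0.157). Acot2, a mitochondrial acyl-CoA thioesterase (chr12:85328811-85334823), was at 81.5, 79.9 and 78.7 CPM in WTSHAM, 61.7, 48.1 and 76.2 in WTCKD, 46.1, 56.5 and 35.9 in WTCKD + RNLS, 66.4, 70.0 and 68.6 in KOCKD and 40.2, 42.8 and 46.9 in KOCKD + RNLS. It was highest in WTSHAM, and KOCKD + RNLS lay below KOCKD without overlap (-0.66 ± 0.15, adjusted p = 0.0101), whereas in the wild type the groups overlapped (-0.43 ± 0.15, adjusted p = 0.123). Without WTCKD + RNLS replicate 2 it was called there too (-0.61, adjusted p = 0.0254). Its transcript shares 17.1% of its 100-base words with Acot1, so its count is uncertain, and Acot1 itself fell in the knockout from a mean of 7.26 to 2.92 CPM. Acot13, the thioesterase with the highest FPKM of the role, was at 293, 239.7 and 227 CPM in WTSHAM, 265, 241 and 276 in WTCKD, 269, 314 and 248 in WTCKD + RNLS, 282, 334 and 301 in KOCKD and 237, 234 and 242 in KOCKD + RNLS, with -0.36 ± 0.11 (adjusted p = 0.0305) in the knockout. Its call was lost with any 1 of the 6 libraries left out other than KOCKD replicate 1 (adjusted p = 0.0704 to 0.145). With the length offsets the difference was 0.01 (adjusted p = 0.943).

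Ppara was the one member that rose. It encodes PPARα, the receptor that fatty acids activate (chr15:85565413-85633249), and was at 121, 93.0 and 102 CPM in WTSHAM, 96.6, 98.4 and 106 in WTCKD, 134, 132 and 163 in WTCKD + RNLS, 86.2, 97.3 and 82.3 in KOCKD and 129, 111 and 118 in KOCKD + RNLS. Every RNLS library lay above every vector library of its genotype, with log2 fold changes of 0.51 ± 0.11 (SE, n = 3 against 3, adjusted p = 0.0138 by edgeR) in the wild type and 0.43 ± 0.11 (adjusted p = 0.0152) in the knockout, or 1.43-fold and 1.35-fold. The difference of the 2 effects was -0.08 (95% CI -0.40 to 0.25). In the wild type the call was lost without WTCKD replicate 1 or 2 or WTCKD + RNLS replicate 3 (adjusted p = 0.0639, 0.0575 and 0.0681), and in the knockout without KOCKD replicate 3 or KOCKD + RNLS replicate 1 (adjusted p = 0.0526 and 0.0666). With the length offsets described further on, the knockout difference was 0.14 (adjusted p = 0.525), while the wild-type call held. Ppargc1a, which encodes PGC-1α, was 0.35 ± 0.12 (adjusted p = 0.132) in the wild type, without overlap, and 0.15 ± 0.12 (adjusted p = 0.454) in the knockout.

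**Figure D3:**
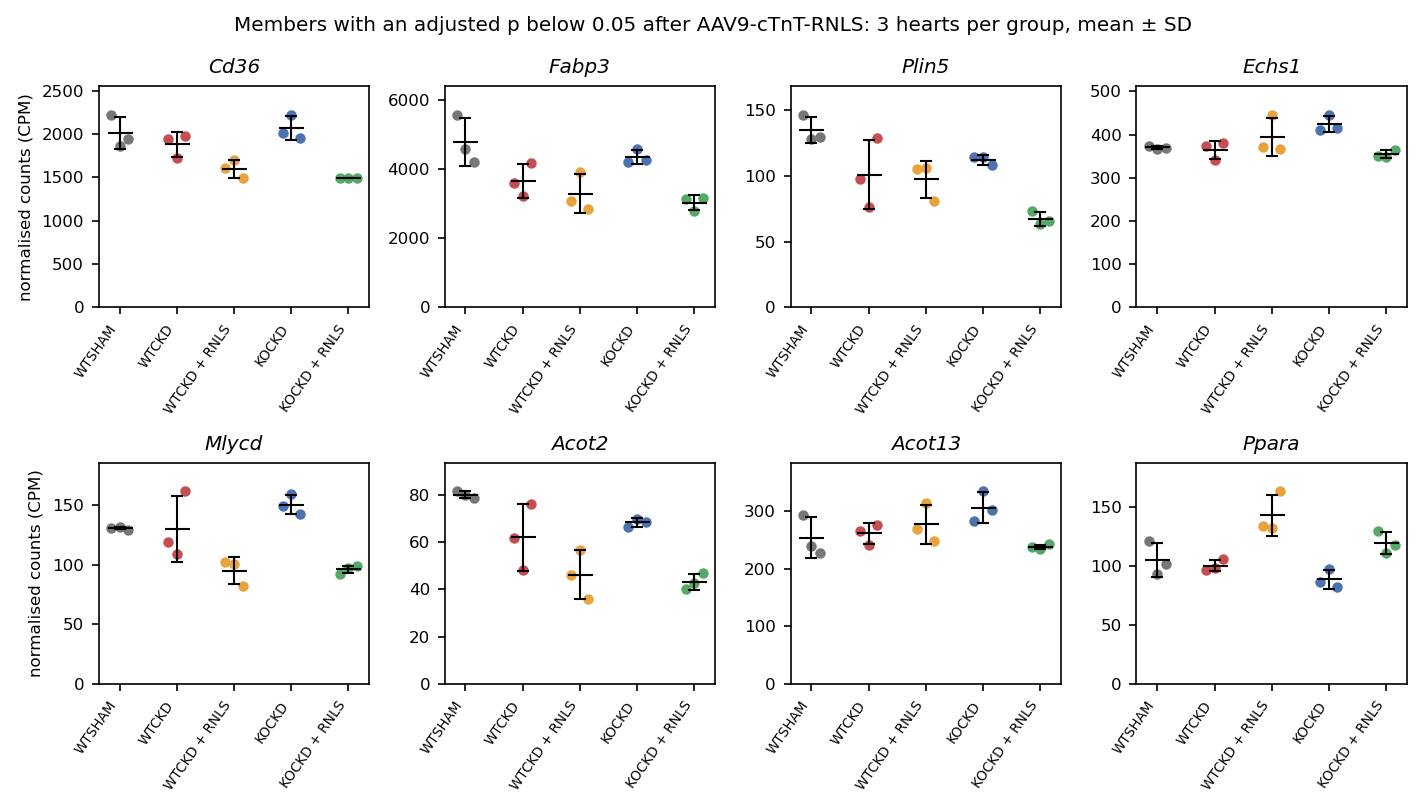
Normalised counts (CPM, axes from 0) of the 8 genes that passed the test after AAV9-cTnT-RNLS, 1 point per heart, with the mean and SD of the 3 hearts in each group. Mlycd is lower and Ppara higher in both RNLS groups than in their vector groups, while Plin5, Echs1 and Acot13 separate from the vector group in the knockout hearts and overlap it in the wild type.

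CKD was compared with sham to ask how these genes differ in the heart with renal failure. The fitted log2 fold change was below 0 for 30 of the 33 members and for all 17 enzymes of the spiral (dehydrogenases, hydratases, thiolase, auxiliary enzymes and electron transfer flavoprotein), with a median of -0.14 over the members, against -0.01 over all genes, of which 49.1% were above 0. By the threshold of the study (an absolute log2 fold change above 0.32 and unadjusted p below 0.05) 4 members were lower, Fabp3, Plin5, Cpt2 and Acot2, and none was higher, where 7.63% of all genes were lower and 3.66% higher. At an unadjusted p below 0.05 without the limit on fold change, edgeR had 7 members lower and none higher. The share of all genes at that p alone is not given here, and the shares above belong to the stricter threshold. DESeq2 called 0 members after adjustment. The shift was smaller without WTSHAM replicate 1 (median -0.09, 26 below 0) or without WTCKD replicate 2 (-0.09, 25 below 0). Without WTCKD replicate 3 Plin5 was called lower, and with the length offsets described further on Fabp3 was. The respiratory chain genes went the other way, with 75 of 86 above 0, a median of 0.10 and none called.

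The virus was given to wild-type CKD mice to ask what renalase from cardiomyocytes changed. Here 26 of 33 members and all 17 spiral enzymes had a log2 fold change above 0, where 52.2% of all genes did, with a median of 0.15 over the members against 0.01 over all genes. None of the 17 passed the test, and their values ranged from 0.05 for Etfa to 0.33 for Ech1. By the study's threshold Ppara, Ech1 and Ppargc1a were higher and Mlycd and Acot2 lower, where 6.31% of all genes were higher and 8.09% lower. Without WTCKD + RNLS replicate 2 the median of the members was 0.04 and 21 were above 0, 14 of them spiral enzymes. Without WTCKD replicate 2 it was 0.11 and 25 were above 0. With the atrial markers of each library as a covariate, an alternative chosen after seeing the data, the median was 0.10 and 19 were above 0. In that fit Cd36 (-0.31) and Acot2 (-0.55) were called as well, and with the length offsets Acadl and Ech1 were. No member was called without WTCKD replicate 1 or without WTCKD + RNLS replicate 3.

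In knockout CKD mice the virus addressed the same question without the animals' own renalase. Of the members 8 had a log2 fold change above 0, where 49.1% of all genes did, and the median was -0.15 against -0.01 over all genes. By the study's threshold Ppara was higher and 6 were lower, the called genes other than Echs1, where 12.2% of all genes were higher and 10.1% lower. Cd36, Plin5, Mlycd and Acot2 passed the test in all 13 alternatives, with adjusted p of at most 0.0483. Without KOCKD + RNLS replicate 2 the median was -0.06. In the fit of the 6 libraries compared 11 members were called (Acadvl, Etfa and Etfb besides the 8), and DESeq2 called 9 (Acadvl besides the 8). With the atrial covariate 13 members were called, among them Acadvl, Acads, Eci1, Etfa and Etfb. The share of all genes called in these other fits is not given here, so their counts have no background to be read against. The respiratory chain genes were lower here too, with 85 of 86 below 0, 49 called lower and a median of -0.35. Some of them are short, such as Atp5k (320 bases), and others longer, such as Atp5a1 (2432). Gene length went with the fold changes in this comparison, as given below, and its part in the respiratory chain values was not tested.

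**Figure D4:**
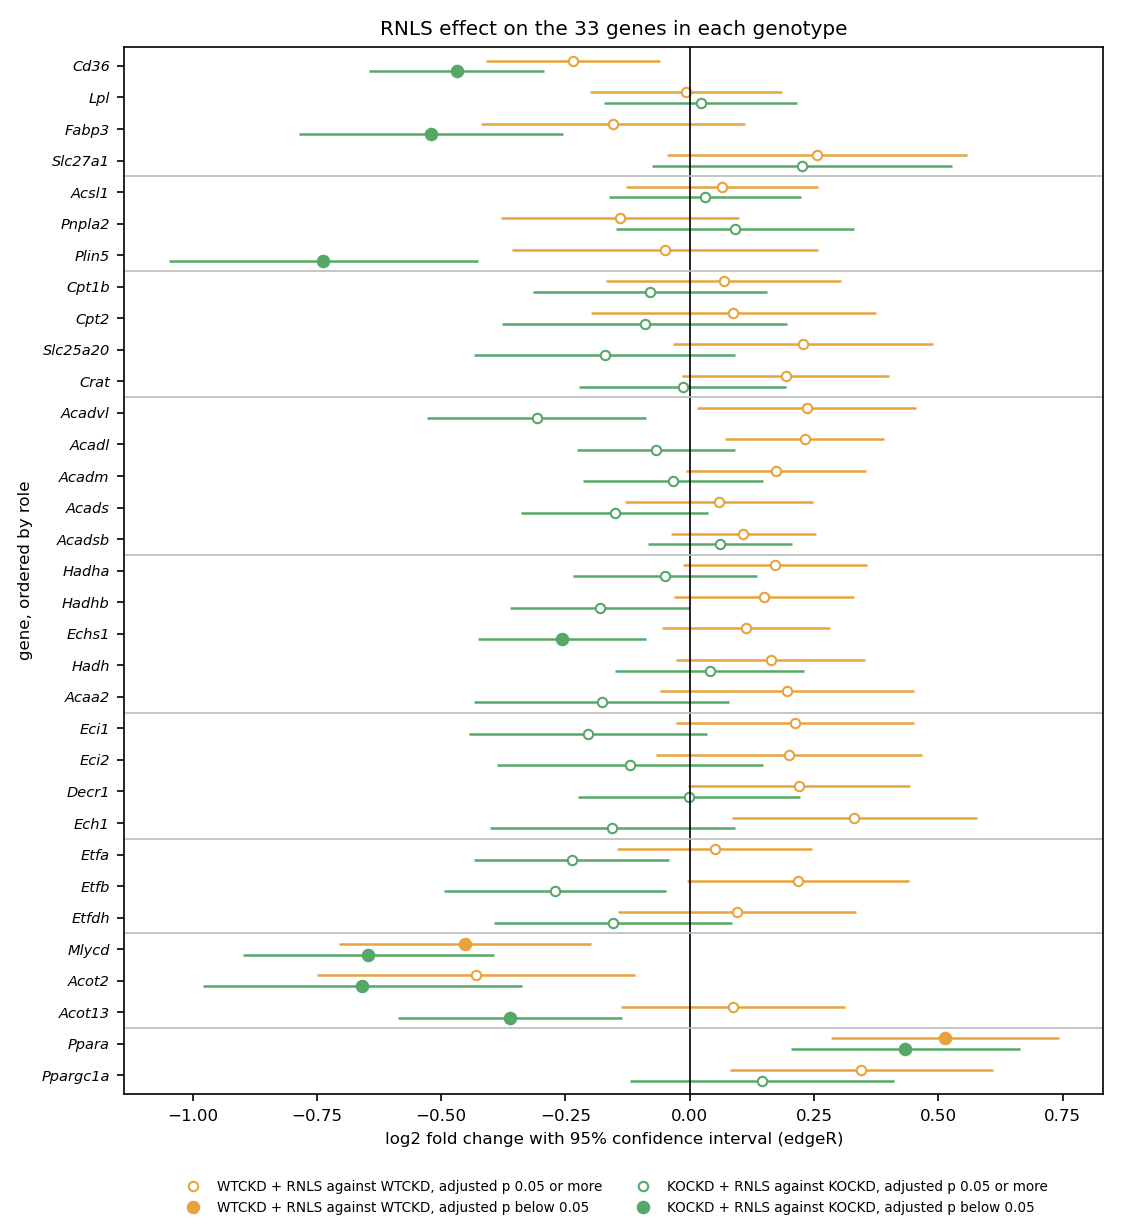
Log2 fold change with its 95% confidence interval (edgeR) of each of the 33 genes after AAV9-cTnT-RNLS, in wild-type (orange) and knockout (green) CKD hearts, with filled points where the adjusted p was below 0.05. The spiral enzymes sit right of 0 in the wild type (median 0.17) and mostly left of it in the knockout (median -0.16). Mlycd, Acot2, Ppara and Ppargc1a are among the genes that sit on the same side in both.

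Gene length went with the fold changes in the knockout. Over all genes tested, split into 4 equal parts by length, the median log2 fold change was -0.24 in the shortest of the 4 (up to 2235 bases), -0.06 and 0.07 in the next, and 0.24 in the longest (from 5852 bases). Of the members 15 were in the shortest, with a median of -0.20, below 0 in 14 of 15, and 4 in the longest, with a median of 0.09. In the wild type the 4 parts had medians between -0.01 and 0.05. Fabp3 and Acot13 are among the shortest members, with 680 and 686 bases, and Ppara is among the longest. With offsets that removed each library's trend on length, the knockout median of the members was 0.00039, Fabp3 was at -0.15, Acot13 at 0.01, Echs1 at -0.05 and Ppara at 0.14, none of them called, while Cd36, Plin5, Mlycd and Acot2 still passed. Etfa was called lower in that fit. The lengths used for Etfa, Ppara and Echs1 differ from the annotation (for Echs1 1502 against 5274 exon bases), so their values with these offsets depend on the transcript assumed. Between WTCKD and WTSHAM the medians of the 4 parts ran from 0.06 in the shortest to -0.10 in the longest, and the offsets left the median of the members at -0.14. After RNLS in the wild type the median with the offsets was 0.16. The values given for the respiratory chain and for the other gene lists are without the offsets.

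**Figure D5:**
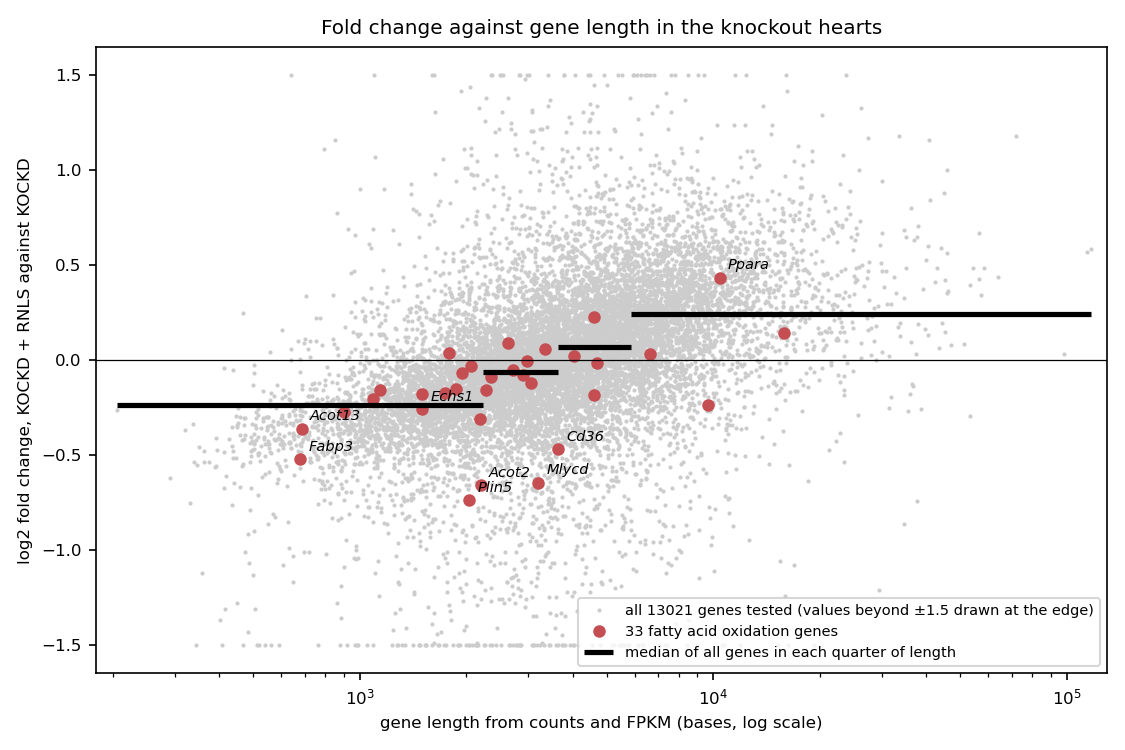
Log2 fold change in KOCKD + RNLS against KOCKD (vertical) by gene length in bases (horizontal, log scale) for all genes tested (grey) and the 33 members (red), with black bars at the median of each of the 4 parts by length. Fabp3 and Acot13 lie near other genes of their length, and Plin5, Acot2, Mlycd and Cd36 lie well below the bar of theirs.

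The 2 RNLS effects were then tested against each other. No member passed by edgeR, and DESeq2 called 1, Acadvl (-0.55, adjusted p = 0.0423). At an unadjusted p below 0.05, 12 members were lower in the knockout than in the wild type (Plin5, Slc25a20, Acadvl, Acadl, Hadhb, Echs1, Acaa2, Eci1, Ech1, Etfa, Etfb and Acot13) and none higher, where 9.88% of all genes were lower and 7.69% higher. The difference was below 0 for 31 of 33 members, where 51.5% of all genes were above 0, with a median of -0.23 against 0.01 over all genes. It was -0.14 without WTCKD + RNLS replicate 2, -0.17 without WTCKD replicate 2 and -0.16 with the length offsets. For Mlycd the difference was -0.19 (95% CI -0.55 to 0.16), for Acot2 -0.23 (95% CI -0.68 to 0.22) and for Cd36 -0.23 (95% CI -0.48 to 0.02).

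KOCKD and WTCKD, both with the vector, were compared to ask how CKD hearts without renalase differ. The same WTCKD libraries also entered the comparison with sham, the wild-type RNLS comparison and the test between the RNLS effects. The directions in these comparisons are therefore not independent of each other. A log2 fold change above 0 was fitted for 29 of 33 members, where 49.2% of all genes were above 0, with a median of 0.12. At an unadjusted p below 0.05, Echs1 and Acot13 were higher and none was lower, where 4.48% of all genes were higher and 5.64% lower, and DESeq2 called 0 after adjustment. Without WTCKD replicate 2 the median was 0.04 and 19 members were above 0. With the length offsets it was 0.05 and 25 were above 0, with 12 of the 17 spiral enzymes among them where all 17 were before.

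The other genes around the pathway are given by list. Of all genes tested 2.19% rose and 2.28% fell with RNLS in the wild type. In the knockout 9.05% rose and 7.04% fell, and in CKD against sham 0.599% were higher and 1.70% lower. Of 31 further genes of mitochondrial fatty acid metabolism none passed in CKD against sham. After RNLS in the wild type Acsl3 (-0.82) and Acsl5 (-0.55), both acyl-CoA synthetases, fell, and in the knockout Acacb (0.44), which makes malonyl-CoA at the mitochondrion, rose, while Acot1 (-1.30), Fabp4 (-0.53) and Fabp5 (-0.61) fell. Acacb has 9467 bases, in the longest part by length, where the knockout median of all genes was 0.24. Its value is without the length offsets, as are those of all other genes in these lists. None of 21 peroxisomal genes passed by edgeR in the 3 comparisons of the study. At an unadjusted p below 0.05, 2 were higher and 3 lower in CKD than in sham. With RNLS 1 rose and 1 fell at that limit in each genotype. The share of all genes at that limit is not given here. Of 18 genes of lipoprotein uptake and triglyceride turnover, Dgat2 (0.54) rose and Angptl4 (-4.83) and Vldlr (-0.41) fell in the wild type, and Angptl4 (-3.28), Lipe (-0.64), Mgll (-0.41) and Agpat3 (-0.38) fell in the knockout. Of 19 partners of PPAR and ERR, Klf15 (0.55) was higher in CKD than in sham, none passed in the wild type, and in the knockout Pprc1, Med1, Ncor1 and Nrip1 rose by 0.39 to 0.52 and Rxrg, the RXR form of muscle, fell (-0.43).

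Several genes outside the members that were listed as PPAR responsive fuel genes fell with RNLS. Ppara itself rose, but in the knockout it was not called with the length offsets (0.14, adjusted p = 0.525 by edgeR). Of 9 tested, Pdk2 (0.51) and Txnip (0.99) were higher in CKD than in sham. With RNLS, Pdk4, Angptl4, Ucp3 and Txnip fell in the wild type and these and Acot1 in the knockout. Pdk4, the kinase that turns off pyruvate dehydrogenase, was at 366, 703 and 716 CPM in WTSHAM, 753, 516 and 1347 in WTCKD, 102, 77.2 and 76.6 in WTCKD + RNLS, 515, 173 and 465 in KOCKD and 119, 105 and 78.1 in KOCKD + RNLS. The log2 fold change was -3.35 in the wild type and -1.93 in the knockout, where the KOCKD libraries also differed among themselves. Ucp3, a mitochondrial uncoupling protein, was at 85.97, 48.2 and 149 CPM in WTCKD and 25.0, 13.4 and 8.65 in WTCKD + RNLS (-2.59), and at 82.1, 25.7 and 99.3 in KOCKD and 27.4, 25.5 and 25.1 in KOCKD + RNLS (-1.41), where KOCKD replicate 2 lay within the range of the RNLS group. Angptl4, an inhibitor of lipoprotein lipase, was at 6.89 to 35.1 CPM in WTCKD and 0.31 to 1.001 in WTCKD + RNLS.

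Other sets of genes moved with the same groups. Of 14 clock genes 7 rose and 3 fell with RNLS in the wild type and 6 rose and 2 fell in the knockout, with Arntl at -4.06 and -3.66 and Per3 at 2.12 and 1.87. Their summed level was 468 to 725 CPM in WTSHAM, 522 to 584 in WTCKD, 858 to 1042 in WTCKD + RNLS, 530 to 907 in KOCKD and 913 to 1099 in KOCKD + RNLS. Summed atrial markers ranged from 134 to 2585 CPM in WTCKD, 168 to 562 in WTCKD + RNLS, 156 to 2725 in KOCKD and 187 to 343 in KOCKD + RNLS. Sln, Myl4 and Myl7 were called lower in KOCKD + RNLS than in KOCKD. In KOCKD the SD of each exceeded its mean (47.8 ± 74.1, 282 ± 427 and 288 ± 449 CPM). Cardiomyocyte markers summed to 102598 to 118503 CPM in WTCKD and 121894 to 136136 in WTCKD + RNLS. None of the 9 was called there, and all 9 had a log2 fold change above 0 (median 0.13). In the knockout they summed to 106164 to 116908 CPM in KOCKD and 116272 to 118672 in KOCKD + RNLS. Of the 9, 7 were below 0 there (median -0.10). Only Myh6 and Ryr2 rose, Myh6 from a mean of 31375 to 45111 CPM. Of the endothelial markers 4 of 8 fell in the wild type (1499 to 1727 against 1212 to 1353 CPM in sum) and in the knockout Pecam1 fell and Flt1 rose. Of 9 macrophage markers 2 fell in the knockout (387 to 464 against 281 to 366 CPM). Of the other marker lists, Fcgr1 was lower in WTCKD than in WTSHAM. With RNLS in the wild type Dpt of fibroblasts fell and Hbb-bs of erythrocytes rose. All 8 fibroblast markers were below 0 there (median -0.37), and all 5 erythrocyte genes tested were above 0 (median 2.72). In the knockout 3 of the 8 and 2 of the 5 were above 0. In CKD against sham all 5 erythrocyte genes were below 0 (median -2.61), with none called. In the knockout Pck1 of the white fat list fell, from 3.51 ± 4.63 to 0.08 ± 0.14 CPM (mean ± SD). Cox7a1, a respiratory chain subunit of heart and muscle in the brown fat list, fell there too. Abcc9, of the list for smooth muscle and pericytes, rose with RNLS in both genotypes. It has 8062 bases, in the longest part by length, and the values of the marker genes are without the length offsets. The list for smooth muscle and pericytes did not move as a whole, since 3 of its 8 genes were above 0 in the wild type and 4 in the knockout. Apart from the fit with the atrial markers as a covariate, the part of these lists in the changes of the members was not tested.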

How the data were processed

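RNA from 15 hearts was sequenced by the authors, who trimmed reads with Trimmomatic, used HISAT2 for mapping and HTSeq for counting. The deposited counts are raw, and the deposited FPKM values were made by the authors with Cufflinks. The study's methods name the mouse build mm9 and the submitters' processing notes GRCm39, so positions are given for mm9 and neither build was checked against the reads. Versions and the strand option are not given in the sources used here. FPKM served only to compare levels between genes.

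Counts were tested with edgeR 4.0.16 (limma 3.58.1, R 4.3.3), with TMM scaling, filterByExpr (minimum count 10, minimum total 15) and the quasi-likelihood test on all 15 libraries in 1 fit, with Benjamini-Hochberg adjustment over 13021 genes. The DESeq program of the study was not used, and its threshold was applied to the edgeR values. Alternatives were DESeq2 1.42.0, its size factors in edgeR, no filter, the replicate block, length offsets, the libraries of the comparison alone, and each library left out. All members are named, with full values for those called and for the member of each role with the highest FPKM. The members and lists were chosen with earlier results of these data known. In the count columns the 3 KOCKD + RNLS libraries carry a name prefix also used for wild-type libraries, and the groups follow the labels. Chi-square per degree of freedom between replicates was 4.45 to 20.4, so no pair was taken as 1 library. The fits were tested on simulated data.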

Additional observations from a re-analysis of the deposited data

How the results depend on the processing

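Every comparison was refitted under 13 alternatives, or more where libraries of 4 groups enter, and over 2343 values of single members 29 lost their call, 20 gained one and 1 called value changed sign. Of the values not called, 115 changed sign. Between WTCKD and WTSHAM 0 members were called, 1 with gene length offsets, and 0 to 1 with 1 library left out. After RNLS in the wild type 2 were called, 4 with the length offsets, 1 in a fit of its own 6 libraries, 3 by DESeq2, 4 with the atrial marker covariate, and 0 to 3 with 1 library left out. After RNLS in the knockout 8 were called, 5 with the length offsets, 11 in a fit of its own 6 libraries, 9 by DESeq2, 13 with the atrial marker covariate, and 5 to 7 with 1 library left out. With the length offsets the knockout median of the members turned from -0.15 to 0.00039, and Acot13 from -0.36 to 0.0114. In the test of the difference between the RNLS effects 0 were called, and 1 by DESeq2. Causes of these shifts were not tested, except that the length offsets take out the trend on length by construction. The share of all genes called under each alternative is not given here, so more or fewer called members may go with more or fewer calls among all genes.

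With the replicate number as a replicate block, 0, 2, 7, 0 and 0 members were called for CKD, for RNLS in the wild type, for RNLS in the knockout, for genotype and for the difference of RNLS effects. In the wild type the block had Ppara and Ppargc1a, and Mlycd was at an adjusted p of 0.0673. Libraries with the same number did not deviate together, since 5 of 30 pairs had a correlation over 0.1 (median -0.0366), against 18 of 60 pairs with other numbers (median 0.00716), so the numbers were not taken as pairs. With 3 hearts a group, small differences were not detectable.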
